A study of Sus scrofa with 19 samples.

Results

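GZMB encodes granzyme B, a serine protease stored in the granules of cytotoxic T cells and natural killer (NK) cells, and KLRK1 encodes NKG2D, an activating receptor on the surface of such cells. The 2 genes were followed in pig endometrium, the mucosa that lines the uterus, after infusion of prostaglandin E2 (PGE2) and estradiol (E2) into a uterine horn. They were found through the RefSeq accessions that the array pairs with its probes, and are 2 of the 3123 genes with a symbol here, with 3 of the array's 43603 probes. GZMB was read by 2 probes, A_72_P606603 (probe 1) and A_72_P210527 (probe 2), and KLRK1 by A_72_P621363. All 3 probes were well above background on all 19 arrays. The pair was chosen by its measured levels on these same arrays, and which comparison drew attention to it is not recorded. Differences of these genes between treated and control gilts, and between the horns of treated gilts, are therefore given as a description, with no test.

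The animals were crossbred gilts, young female pigs, aged 8 months, whose uterine horns were both cannulated on days 8 to 9 of the cycle. In 6 treated gilts a randomly chosen horn received PGE2 (200 µg) and E2 (33.3 µg) at each infusion, with infusions 4 h apart over 24 h (days 11 to 12 from the onset of heat), and these are the hormone horns (6 arrays). The opposite horn of a treated gilt was infused with vehicle (saline holding 1% ethanol, 5 mL) and is called the placebo horn (5 arrays, since for gilt 40 only the hormone horn was analysed here). In 4 control gilts both horns received vehicle, which gave 4 arrays marked P and 4 marked L in the titles, a mark the labels do not explain. In treated gilts 36, 38, 41, 44 and 47 the hormone horn was marked P and the placebo horn L, while the hormone horn of gilt 40 was marked L. In the gilts with both horns, hormone against placebo is therefore also P against L, and these cannot be told apart. All groups share the surgery, the cannulas and the infused fluid, and uninfused endometrium was not analysed here. The 2 horns of a gilt shared an animal and a slide. The labels name the tissue as a whole, so the arrays read a mixture of cells, in which fewer cells of a type and less RNA per cell cannot be told apart.

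When a cytotoxic lymphocyte recognises a target, its granules fuse with the cell surface and release granzymes together with a pore-forming protein, and granzyme B then cleaves caspases and BID inside the target. KLRK1 signals through the adaptor HCST (DAP10) after binding ligands of the MIC and ULBP families, which stressed cells display. Lymphocytes that carry granules are a regular part of the endometrial immune cells, and in the pig NK cells gather in the uterus around the time of implantation.

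Before the 2 genes are described, gilt 47 has to be set apart. In its hormone and placebo horn, all 8 measured granule effector genes, all 7 NK receptor and adaptor genes and all 8 T cell markers lay above every control array. So did all 18 chemokines and receptors, all 3 B cell markers and all 4 endothelial markers in each horn. Of epithelial markers 3 of 6 did so, and of smooth muscle markers 0 of 4. The share over all genes is not given here, so nothing particular to cytotoxic genes is read from these counts. The median over the granule list was 2.14 log2 units above the control mean in the hormone horn of gilt 47, against -0.03 to 0.50 in the other 5 hormone horns. In its placebo horn the same median was 2.15, against 0.07 to 0.49 in the other 4 placebo horns. For T cell markers gilt 47 stood 2.76 and 2.86 log2 units above the control mean in the hormone and the placebo horn, for B cell markers 3.07 and 3.32, and for macrophage and dendritic cell markers 2.47 and 2.62. The 8 control horns spanned -0.26 to 0.26 for the granule list and -0.57 to 0.26 for the T cell list. The part of these markers in the levels of GZMB and KLRK1 was not tested, and values are given with and without gilt 47. The tissue name was not tested. The median over 4 smooth muscle markers spanned -0.92 to 2.34 log2 units from the control mean in the 8 control horns. EPCAM, an epithelial surface protein and 1 of 6 epithelial markers measured, averaged 5.57 ± 0.21 (SD, n = 6) in hormone horns. It averaged 5.43 ± 0.12 (SD, n = 5) in placebo horns and 4.88 ± 0.15 (SD, n = 4 gilts) in control gilts. Levels here and below are log2 of the probe's signal minus log2 of the 75th percentile of that array, so 0 marks the brightness of that percentile.

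**Figure D1:**
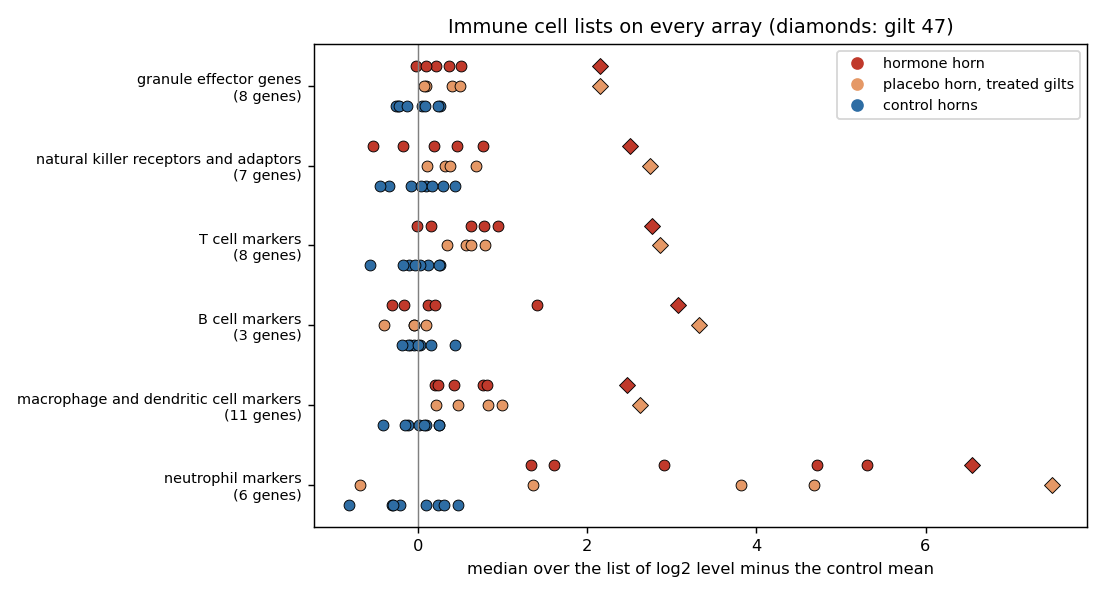
Immune cell lists on every array. Each point is the median, over the measured genes of a list, of the log2 level minus the control mean (horizontal axis, log2 units), for hormone horns, placebo horns of treated gilts and control horns. Diamonds mark gilt 47, which stood at 2.14 and 2.15 for the granule effector list, where the 8 control horns spanned -0.26 to 0.26.

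GZMB signal was lower in treated than in control gilts, in the infused horn and in the opposite horn alike, except in gilt 47. On probe 1, the 6 hormone horns ranged from 0.80 in gilt 36 through a median of 1.48 to 2.43 in gilt 47. The placebo horns read 1.35 in gilt 36, 1.64 in gilt 38, 1.88 in gilt 41, 1.98 in gilt 44 and 2.25 in gilt 47. Control horns marked P read 2.68, 2.33, 2.68 and 2.08 in gilts 9, 14, 28 and 46, and those marked L read 2.43, 2.50, 2.70 and 2.12. So 5 of 6 hormone horns and 4 of 5 placebo horns lay below every control horn, and both exceptions came from gilt 47. Over all probes tested, 4.93% were called lower in hormone horns and 1.96% in placebo horns against control gilts (limma, adjusted p under 0.05). These shares count calls, not horns outside the range of the control horns, and the share of probes with such horns is not given here. Nothing is therefore read from the counts of horns, here or for the other probes below, about genes picked for their values. Group means were 1.50 ± 0.53 (SD, n = 6) in hormone horns, 1.82 ± 0.34 (SD, n = 5) in placebo horns and 2.44 ± 0.25 (SD, n = 4 gilts) in control gilts. The placebo and control means thus lay further apart than the SD of either group, while the hormone and placebo means did not. Without gilt 47 the means were 1.32 ± 0.31 (SD, n = 5) in hormone horns and 1.71 ± 0.28 (SD, n = 4) in placebo horns, further apart than either SD.

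In the model fitted over all arrays, GZMB on probe 1 differed by -0.94 ± 0.21 log2 units (SE) between hormone horns and control gilts, or 0.523-fold. The placebo horns differed from control gilts by -0.63 ± 0.22, or 0.648-fold. These comparisons share the control gilts, and the fit counts arrays while the contrast sets gilts against gilts. Without gilt 47 the differences were -1.12 ± 0.16 for hormone horns and -0.71 ± 0.17 for placebo horns.

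Probe 2, which carries the same RefSeq transcript, gave the same order of groups with wider spread. Hormone horns ranged from -0.16 in gilt 36 through a median of 0.81 to 2.36 in gilt 47, and placebo horns read 0.41, 1.11, 0.89, 1.05 and 2.14 in gilts 36, 38, 41, 44 and 47. Control horns marked P read 1.82, 1.88, 1.90 and 1.19 in gilts 9, 14, 28 and 46. Those marked L read 1.59, 2.01, 1.98 and 1.21. Again 5 of 6 hormone horns and 4 of 5 placebo horns lay below every control horn, and here both horns of gilt 47 lay above all of them. The difference from control gilts was -0.86 ± 0.30 log2 units (SE) in hormone horns and -0.57 ± 0.31 in placebo horns, and without gilt 47 it was -1.16 ± 0.20 and -0.79 ± 0.21. Over the 10 gilts the probes correlated at 0.922 (Pearson), and at 0.955 without gilt 47, as a description of probes that share RNA, slide and array.

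**Figure D2:**
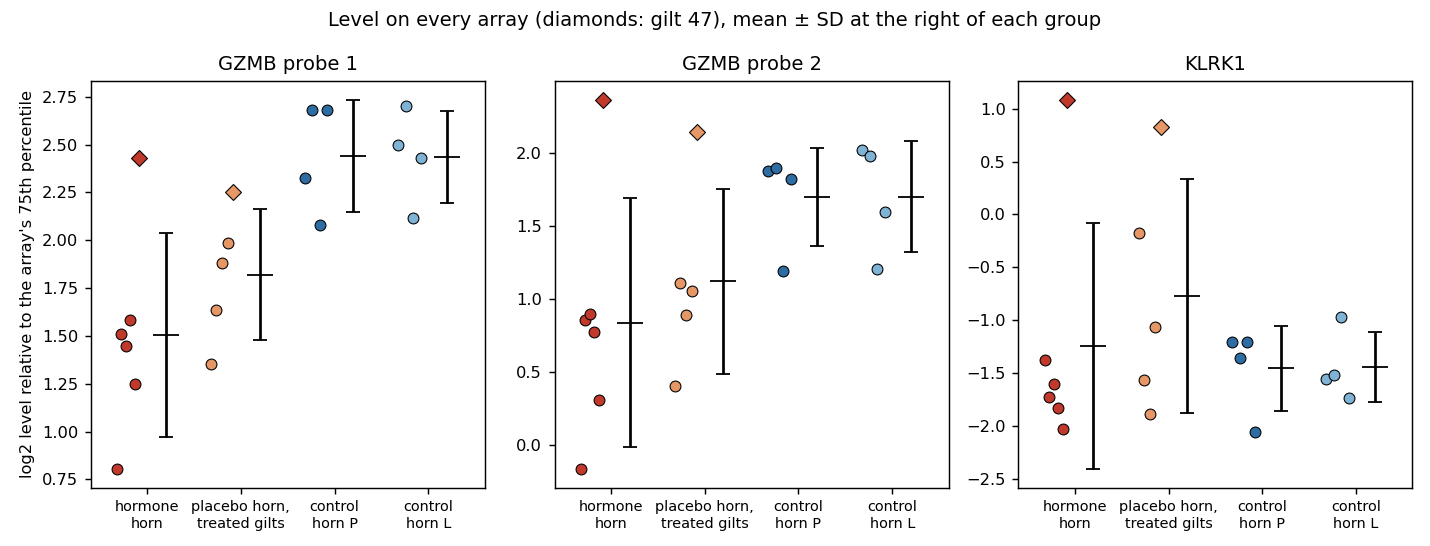
Level of each probe on every array, as log2 relative to the array's 75th percentile (vertical axis, a separate scale for each probe), by group. Points are arrays, diamonds mark gilt 47, and the horizontal mark with its bar is the mean ± SD over the arrays of that group (hormone horns 1.50 ± 0.53 for GZMB probe 1). For GZMB, all hormone and placebo horns except those of gilt 47 lie below every control horn, while for KLRK1 the groups overlap.

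KLRK1 showed no such order. Its hormone horns ranged from -2.04 in gilt 44 through a median of -1.66 to 1.09 in gilt 47. The placebo horns read -0.18 in gilt 36, -1.56 in gilt 38, -1.89 in gilt 41, -1.06 in gilt 44 and 0.83 in gilt 47. Control horns marked P read -2.06, -1.21, -1.36 and -1.21 in gilts 9, 14, 28 and 46, and those marked L read -1.74, -1.55, -1.52 and -0.97. The groups overlapped: 5 of 6 hormone horns and 3 of 5 placebo horns fell within the range of the control horns, and 1 hormone horn (gilt 47) and 2 placebo horns (gilts 36 and 47) lay above it. Means were -1.25 ± 1.17 (SD, n = 6) in hormone horns, -0.77 ± 1.10 (SD, n = 5) in placebo horns and -1.45 ± 0.33 (SD, n = 4 gilts) in control gilts, so no neighbouring pair of means differed by more than the spread within the treated groups. Without gilt 47 they were -1.71 ± 0.25 (SD, n = 5) in hormone horns and -1.17 ± 0.74 (SD, n = 4) in placebo horns. The hormone mean then lay further from each other mean than its own SD, but not further than the SD of the other group.

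The fitted difference of KLRK1 from control gilts was 0.20 ± 0.44 log2 units (SE) in hormone horns and 0.64 ± 0.46 in placebo horns. A single gilt set the sign for hormone horns, since without gilt 47 the difference was -0.26 ± 0.26. For placebo horns it was 0.29 ± 0.28 without gilt 47.

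Within treated gilts, the hormone horn had the lower GZMB signal in 4 of 5 gilts on both probes. On probe 1 the hormone horn minus the placebo horn was -0.55 in gilt 36, -0.12 in gilt 38, -0.30 in gilt 41, -0.74 in gilt 44 and 0.18 in gilt 47. On probe 2 the same differences were -0.57, -0.26, -0.12, -0.75 and 0.22. Gilts 36 and 44 thus showed the widest gaps and gilt 47 the opposite sign on both probes. The fitted difference was -0.31 ± 0.15 log2 units (SE) on probe 1, or 0.807-fold, and -0.29 ± 0.21 on probe 2, and without gilt 47 it was -0.41 ± 0.13 and -0.37 ± 0.17. Markers of smooth muscle also differed between these horns: the median over 4 genes, as hormone minus placebo horn, was 1.50 in gilt 36, 0.31 in gilt 38, 0.55 in gilt 41, 1.20 in gilt 44 and 0.46 in gilt 47. It was thus largest in the 2 gilts with the widest GZMB gaps, and its part in the horn differences of GZMB and KLRK1 was not tested. Other lists also had their largest medians in gilts 36 and 44, among them endothelial markers (0.30 and 0.72) and all-leukocyte markers (0.12 and 0.52). Some lists did not, such as B cell markers (0.63 and -0.40). The match is therefore not particular to smooth muscle.

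For KLRK1 the hormone horn minus the placebo horn was -1.20 in gilt 36, -0.16 in gilt 38, 0.06 in gilt 41, -0.97 in gilt 44 and 0.26 in gilt 47. The hormone horn was therefore lower in 3 of 5 gilts, with the same gilts, 36 and 44, showing the widest gaps as for GZMB and the largest smooth muscle marker differences. The fitted difference was -0.44 ± 0.31 log2 units (SE), and -0.55 ± 0.21 without gilt 47. Over all probes this comparison called 0.00256% (limma, adjusted p under 0.05), a single probe of 39096, with 3877 at an unadjusted p under 0.05. It was 16 probes with the gilt as a fixed block and also 16 without gilt 47.

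In control gilts both horns received vehicle. Their horns were not alike in other markers: in gilt 9 the median over the 4 smooth muscle markers was 2.34 log2 units above the control mean in the P horn and -0.92 in the L horn. The same P horn had the lowest medians of the 8 control horns for T cell markers (-0.57) and for macrophage and dendritic cell markers (-0.41), and the part of this in the values below was not tested. The P horn minus the L horn on GZMB probe 1 was 0.25 in gilt 9, -0.17 in gilt 14, -0.02 in gilt 28 and -0.04 in gilt 46. On probe 2 it was 0.23, -0.14, -0.08 and -0.01 in the same gilts. In this comparison a test was made. The limma difference was 0.01 ± 0.17 log2 units (SE, adjusted p = 0.999992) on probe 1 and -0.002 ± 0.24 (adjusted p = 0.999992) on probe 2. For KLRK1 the P horn minus the L horn was -0.32 in gilt 9, 0.34 in gilt 14, 0.17 in gilt 28 and -0.24 in gilt 46, with a limma difference of -0.01 ± 0.35 (SE, adjusted p = 0.999992). The sign varied between gilts, and none of the 3 probes passed. Of all probes 0.0% passed (0 of 39094 by limma, with 935 at an unadjusted p under 0.05). The hormone and placebo horns of gilts 36 and 44 lay further apart than the horns of any control gilt on both GZMB probes. Those of gilt 41 did so on probe 1 only, and those of gilt 38 on probe 2 only. The share of all probes with such gaps is not given here, so nothing is read from them about genes picked for their values.

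**Figure D3:**
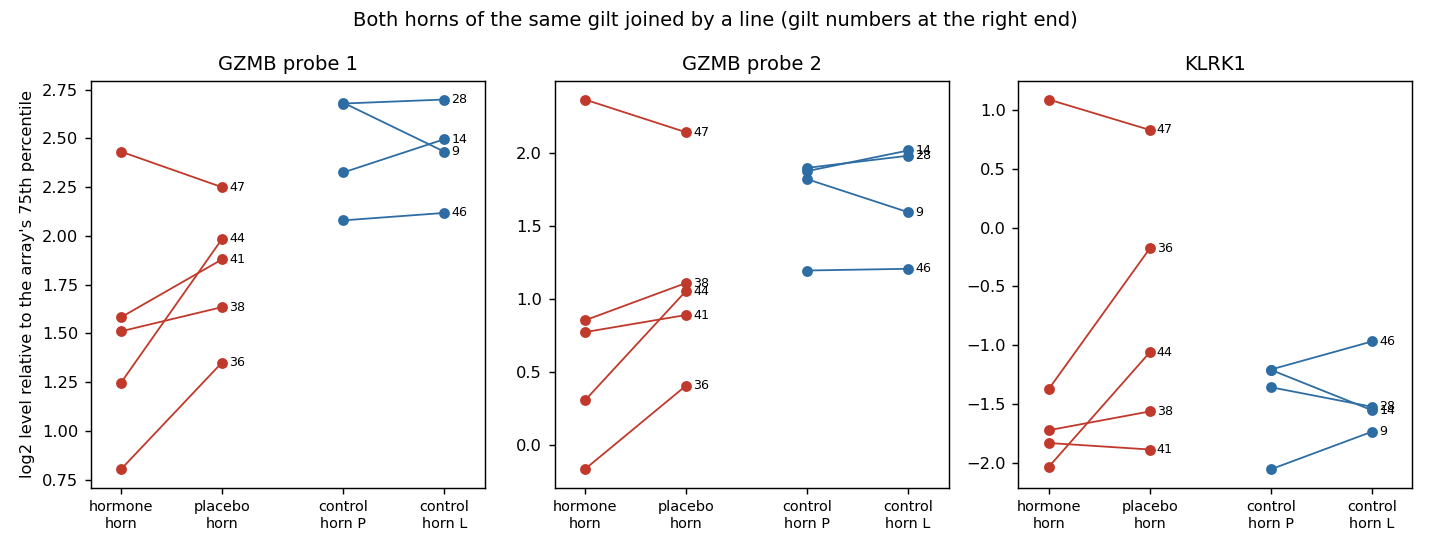
The horns of each gilt joined by a line, as log2 level relative to the array's 75th percentile (vertical axis, a separate scale for each probe). Red lines join the hormone and placebo horn of 5 treated gilts and blue lines the P and L horn of 4 control gilts, and gilt 40 is absent because only its hormone horn was used. For both GZMB probes the hormone horn is lower in 4 of 5 gilts, with gilt 47 the exception.

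Arrays were scanned on 3 days, and the GZMB difference was not alike on all of them. On probe 1, hormone horns minus control gilts gave -1.53 on day 1 (gilts 36 and 44 against control gilt 9) and -1.04 on day 2 (gilts 40 and 41 against gilts 14 and 28). On day 3, which held gilts 38 and 47 and control gilt 46, it gave -0.13. On probe 2 the values were -1.63, -1.10 and 0.41, so the sign turned on day 3. Placebo horns minus control gilts gave -0.89, -0.67 and -0.16 on probe 1 for days 1 to 3, and -0.98, -1.05 and 0.42 on probe 2. Day 3 combined the treated gilt with the highest GZMB signal with the control gilt with the lowest. For KLRK1 the hormone horn minus control values were 0.19, -0.31 and 0.77, and the placebo horn minus control values 1.28, -0.48 and 0.72. Each day held 1 or 2 control gilts, so these values carry no error of their own. Only slide 6 held a treated and a control gilt (36 and 9), and there the GZMB difference on probe 1 was -1.75 for the hormone horn and -1.21 for the placebo horn.

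The other granule effector genes gave no call. Of 14 genes listed besides GZMB, 8 were measured, and 0 passed in any comparison (limma, adjusted p under 0.05), where 15.2% of genes with a symbol passed in hormone horns and 4.49% in placebo horns against control gilts. The granule, NK and T cell lists together gave 0 calls in both comparisons with control gilts, but 9 in hormone horns and 8 in placebo horns with slide as a covariate, a fit in which treated and control gilts meet only on slide 6. At an unadjusted p under 0.05 the granule list counts were 1 of 8 in hormone horns and 2 of 8 in placebo horns. Their median difference was 0.49 in hormone horns and 0.66 in placebo horns against control gilts, beside 0.17 and 0.07 over all genes with a symbol. Without gilt 47 these medians were 0.18 and 0.31, beside 0.17 and 0.07 over all genes, with 5 of 8 genes positive in each comparison. Over all genes with a symbol, 2006 of 3009 were then positive in hormone horns and 1743 of 3009 in placebo horns. GZMH, a sister granzyme, averaged -0.42 ± 1.12 (SD, n = 6) in hormone horns, -0.15 ± 0.72 (SD, n = 5) in placebo horns and -1.30 ± 0.48 (SD, n = 4 gilts) in control gilts, a hormone horn difference of 0.88 ± 0.39 (SE, limma adjusted p = 0.159). The tryptase-like granzymes GZMA and GZMK differed by 0.53 ± 0.41 (adjusted p = 0.438) and 0.33 ± 0.43 (adjusted p = 0.668), and GZMM by 0.16 ± 0.22 (adjusted p = 0.689). NKG7, a granule membrane protein, differed by 0.67 ± 0.37 (adjusted p = 0.264). The death receptor ligands FASLG and TNFSF10 differed by 0.54 ± 0.27 (adjusted p = 0.219) and -0.14 ± 0.41 (adjusted p = 0.861). IFNG, the interferon that cytotoxic lymphocytes release, differed by 0.46 ± 0.32 (adjusted p = 0.382). In placebo horns GZMH differed from control gilts by 0.98 ± 0.41 (adjusted p = 0.156) and GZMA by 0.85 ± 0.43 (adjusted p = 0.231). PRF1, the pore-forming partner of granzyme B, was not analysed here.

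The genes that work with KLRK1 gave no call either. Of 21 NK receptors and adaptors listed besides KLRK1, 7 were measured, and 0 passed, with 0 of 7 in hormone horns and 3 of 7 in placebo horns at an unadjusted p under 0.05. The median difference from control gilts was 0.64 in hormone horns and 0.85 in placebo horns, and 0.25 and 0.35 without gilt 47. HCST, the adaptor through which KLRK1 signals, averaged 0.54 ± 0.78 (SD, n = 6) in hormone horns, 0.77 ± 0.50 (SD, n = 5) in placebo horns and 0.66 ± 0.26 (SD, n = 4 gilts) in control gilts. Its hormone horn difference was -0.12 ± 0.28 (SE, limma adjusted p = 0.819). TYROBP (DAP12) and FCER1G, adaptors that myeloid cells also use, differed by 0.62 ± 0.39 (adjusted p = 0.328) and 0.71 ± 0.41 (adjusted p = 0.280). The Fc receptor FCGR3A differed by 0.72 ± 0.40 (adjusted p = 0.257), and NCR1, the NK receptor NKp46, by 0.31 ± 0.26 (adjusted p = 0.474). CD96, a receptor of T and NK cells, differed by 0.74 ± 0.47 (adjusted p = 0.327), and SH2D1A, the adaptor SAP, by 0.64 ± 0.61 (adjusted p = 0.535). Of 10 KLRK1 ligands listed, only ULBP1 was measured. It averaged -3.73 ± 0.35 (SD, n = 6) in hormone horns, -3.26 ± 0.22 (SD, n = 5) in placebo horns and -3.61 ± 0.60 (SD, n = 4 gilts) in control gilts, and did not pass.

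T cell markers were positive where GZMB was negative, with no call. All 8 measured genes of 20 listed were above control gilts in hormone horns, with a median difference of 0.84, and in placebo horns, with a median of 1.00, but 0 passed in either comparison, with 2 of 8 and 5 of 8 at an unadjusted p under 0.05. Over all genes with a symbol the medians were 0.17 and 0.07, and 1977 and 1754 of 3009 genes lay above control gilts. Without gilt 47 the T cell medians were 0.44 and 0.59, beside 0.17 and 0.07 over all genes. Then 8 of 8 T cell markers lay above control gilts in hormone horns and 7 of 8 in placebo horns, beside 2006 and 1743 of 3009 genes. CD3G, a chain of the T cell receptor complex, had the smallest adjusted p, and averaged -2.07 ± 1.38 (SD, n = 6) in hormone horns, -1.77 ± 1.34 (SD, n = 5) in placebo horns and -3.29 ± 0.44 (SD, n = 4 gilts) in control gilts. Its differences were 1.22 ± 0.52 (SE, limma adjusted p = 0.132) in hormone horns and 1.41 ± 0.53 (adjusted p = 0.121) in placebo horns. Between the horns of treated gilts, the granule, NK and T cell lists had median differences of -0.12, -0.21 and -0.13, beside 0.07 over all genes, with 0 genes at an unadjusted p under 0.05 in all 3 lists. Whether GZMB differs from these genes was not tested.

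**Figure D4:**
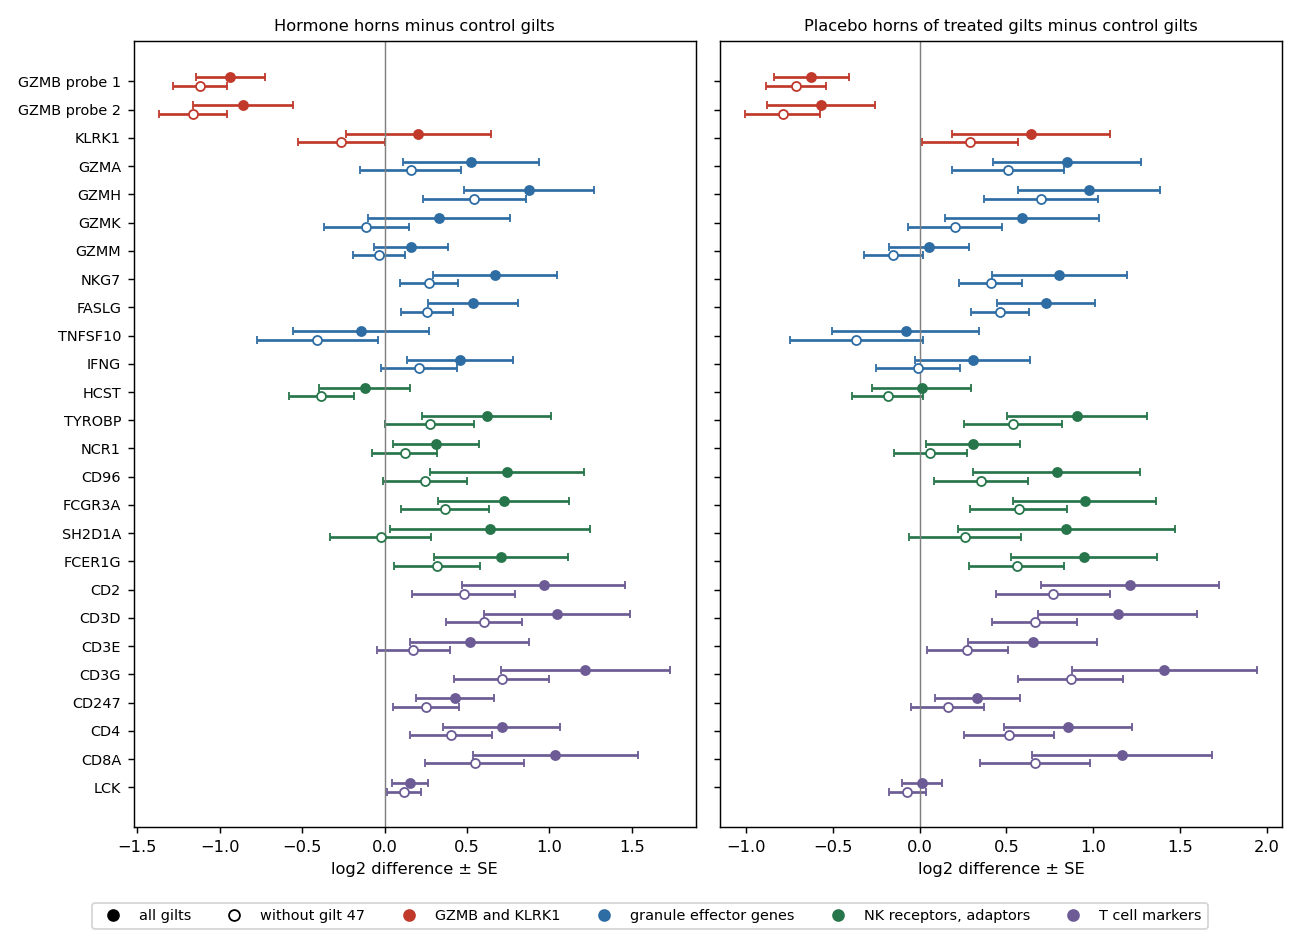
Differences from control gilts, in log2 units with SE (horizontal axis), of GZMB, KLRK1 and the measured granule effector, NK receptor and adaptor, and T cell genes. Filled points use all gilts and open points leave out gilt 47, with hormone horns on the left and placebo horns on the right. Both GZMB probes lie below 0 with and without gilt 47 (probe 1 in hormone horns: -0.94 and -1.12), while 7 of 8 granule effector genes lie above 0 in hormone horns with all gilts and 5 of 8 without gilt 47. Over all genes with a symbol, 1977 of 3009 lie above 0 there with all gilts and 2006 of 3009 without gilt 47, so nothing particular to the granule list is read from its counts.

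Over all 19 lists, which hold 121 measured genes besides GZMB and KLRK1, 21 passed in hormone horns and 9 in placebo horns against control gilts. These counts stand beside 15.2% and 4.49% of all genes with a symbol, and nothing particular to the lists is read from them. The first count was 13, 9 and 9 without control gilt 9, 14 and 28. The second was 0 without any of these, 1 without gilt 38, 5 without gilt 41, 2 without gilt 47 and 16 without gilt 36. Of the 6 measured genes of granule release and trafficking, LAMP1, a lysosomal membrane protein that also coats cytotoxic granules, rose by 0.64 ± 0.14 log2 units (SE, limma adjusted p = 0.0087) in hormone horns and by 0.52 ± 0.14 (adjusted p = 0.0456) in placebo horns. M6PR, a mannose 6-phosphate receptor that carries enzymes to lysosomes, rose by 0.98 ± 0.25 (adjusted p = 0.0373) in placebo horns, and its hormone horn difference was 0.61 ± 0.24 (adjusted p = 0.112). LAMP1 passed in hormone horns with each gilt left out, whereas its placebo horn call was lost without gilt 9, 14, 28, 38, 40, 44, 46 or 47 (adjusted p up to 0.165). That of M6PR was lost without gilt 9, 14, 28, 38, 44 or 47 (adjusted p up to 0.129). Both proteins are made by most cell types.

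Among 6 measured genes of KLRK1 signalling, the transcription factor STAT5A, which also acts downstream of cytokine receptors, rose by 1.22 ± 0.28 (SE, limma adjusted p = 0.0116) in hormone horns and by 1.03 ± 0.29 (adjusted p = 0.0493) in placebo horns. The related STAT5B rose by 0.76 ± 0.21 (adjusted p = 0.0280) in hormone horns. The STAT5A call in hormone horns was lost without gilt 14 (adjusted p = 0.0514) and in placebo horns without gilt 9, 14, 28, 38, 41, 46 or 47 (adjusted p up to 0.151). The STAT5B call was lost without gilt 9, 14, 28, 40 or 46 (adjusted p up to 0.0898).

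IL18R1, a chain of the receptor for the cytokine interleukin 18, was the only list gene called lower against control gilts, though other list genes had negative differences without a call. It averaged -3.57 ± 0.29 (SD, n = 6) in hormone horns, -2.91 ± 0.59 (SD, n = 5) in placebo horns and -2.30 ± 0.47 (SD, n = 4 gilts) in control gilts. Its hormone horn difference was -1.28 ± 0.34 (SE, limma adjusted p = 0.0244), and its placebo horn difference -0.62 ± 0.36 (adjusted p = 0.293). The call was lost without gilt 28 or 46 (adjusted p up to 0.0941). IL15, a cytokine that sustains NK cells and granzyme B production, rose by 0.60 ± 0.19 (adjusted p = 0.04998) in hormone horns, a call lost without gilt 9, 14, 28, 36, 40, 41 or 44 (adjusted p up to 0.179). The IL15 call was also lost in 7 of 11 other settings of the processing, among them the authors' deposited values. S1PR5, a receptor that guides NK cells out of tissues, rose by 0.77 ± 0.23 (adjusted p = 0.0370), a call lost without gilt 9, 14, 28, 36, 41, 44 or 47 (adjusted p up to 0.0946). It was 1 of 18 measured chemokines and receptors.

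Of 6 measured substrates and inhibitors of granzyme B, 0 passed. SERPINB9, the inhibitor that shields lymphocytes from their own granzyme B, differed by 0.67 ± 0.22 (SE, limma adjusted p = 0.0555) in hormone horns. Of 5 lymphocyte transcription factors measured, 0 passed, and PRDM1, with the smallest adjusted p of the list, differed by 0.88 ± 0.35 (adjusted p = 0.135) in placebo horns.

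Markers of other cells were counted against the same background, in which 15.2% of genes with a symbol passed in hormone horns and 4.49% in placebo horns. In hormone horns, 3 of 6 neutrophil markers rose: S100A8 (by 6.41 ± 1.15 log2 units, limma adjusted p = 0.0036), S100A9 and S100A12. The other members, TREM1, MMP9 and PGLYRP1, gave no call, and without gilt 47 they differed by 1.91, 0.29 and -1.38. Of the macrophage and dendritic cell markers, 3 of 11 rose (LYZ by 2.54 ± 0.57, adjusted p = 0.0106). So did 3 of 6 epithelial markers (EPCAM by 0.69 ± 0.11, adjusted p = 0.0025), 3 of 4 endothelial markers, 2 of 5 stromal markers and 1 of 3 mast cell markers. Of 3 B cell markers, 2 all-leukocyte markers and 4 smooth muscle markers, 0 passed. In placebo horns, EPCAM, CLDN4 and CDH1 of the epithelial list, LYZ, S100A8 and the mast cell marker KIT rose. The hormone horn calls of S100A8, LYZ and EPCAM remained with each gilt left out, though that of LYZ was lost with the control horns averaged. All 6 placebo horn calls were lost without gilt 9, without gilt 14 and without gilt 28. The part of these lists in the GZMB difference was not tested.

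Over the 10 gilts, the levels of GZMB and KLRK1 were nearly unrelated, with a Pearson correlation of 0.108 and a Spearman correlation of -0.04, and a Pearson correlation of -0.32 without gilt 47. Correlations here describe gilts that share group, slide and scan day. The 5 genes most like GZMB among 2986 genes were TMCO1, an endoplasmic reticulum protein (Pearson 0.932), PNISR, a nuclear protein (0.918), GATM, an enzyme of creatine synthesis (0.896), OAS2, an interferon-induced enzyme (0.879), and FBXO7, a part of a ubiquitin ligase (0.869). Without gilt 47 they ranged from 0.868 for FBXO7 to 0.981 for GATM, and without gilt 36, the farthest from the median of GZMB, from 0.814 for OAS2 to 0.948 for FBXO7. Among the genes most like KLRK1 were PVRIG, an inhibitory receptor of lymphocytes (0.948), MS4A1, a B cell antigen (0.939), TTL, a tubulin-modifying enzyme (0.931), and RAP2B, a small GTPase (0.927). These rested on gilt 47, without which they ranged from 0.370 for RAP2B to 0.770 for PVRIG.

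**Figure D5:**
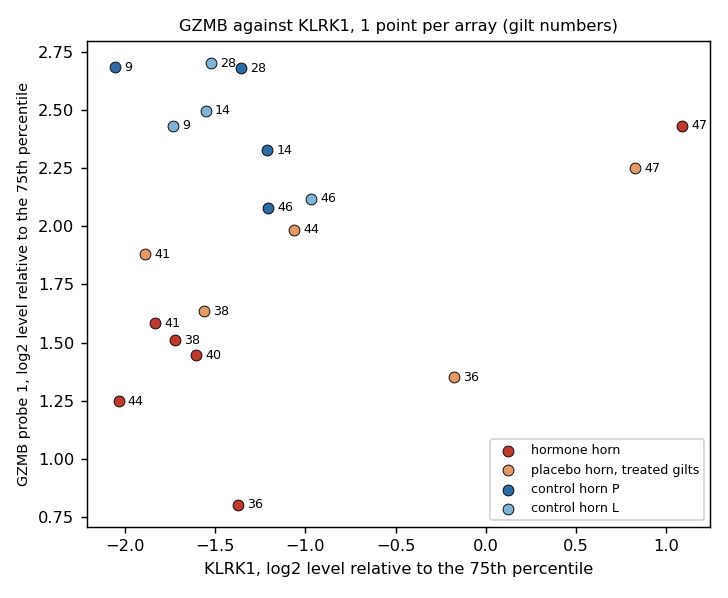
GZMB probe 1 (vertical axis) against KLRK1 (horizontal axis), both as log2 level relative to the array's 75th percentile, with 1 point per array and gilt numbers beside the points. The horns of gilt 47 stand alone at the right, and control horns lie above the other treated horns along the GZMB axis but not along the KLRK1 axis.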

How the data were processed

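Endometrial RNA was measured on one-colour Agilent arrays, and each array's intensity per spot (processed signal) was background-subtracted and detrended by Feature Extraction 10.7.3.1, per the file headers, whereas the submitters' processing notes name version 9.1. The authors' deposited value table, in log2 units, of unstated normalization and centring, served as an alternative only. Control spots and outlier-flagged spots were left out, spots of a probe averaged, and the log2 75th percentile of each array (597 to 983 before log2) subtracted. Between 79.1% and 88.4% of spots per array were well above background. Tests covered 39098 probes that were well above background on 4 or more arrays, with limma 3.58.1 and statmod 1.5.0 (R 4.3.3): 4 groups, gilt as random block (correlation 0.536), eBayes with trend, two-sided, Benjamini-Hochberg over all probes, called at an adjusted p under 0.05. The fit was tested on simulated data. Arrays of a gilt are from the same animal, and their deviations from group means correlated at 0.336 to 0.795 (treated) and 0.403 to 0.627 (control), against at most 0.143 between gilts. Control level is the mean of P and L horns. The number of arrays limits the precision.

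Symbols came from RefSeq accessions matched to a reference table (6768 of 43603 probes, 3010 genes tested), and each gene outside the pair used its brightest probe. Named genes are GZMB and KLRK1, all measured granule and NK list genes, in other lists up to 3 that passed against control gilts or else the 1 with the smallest adjusted p, and the 5 genes most correlated with each member, of which 1 is not reported here. Members and lists were chosen with earlier results of these data known. Alternatives were other normalizations, filters, blocks and covariates and each gilt left out. Normexp used the median signal because the files hold no mean signal.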

Additional observations from a re-analysis of the deposited data

Results flagged for a closer look

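Values that stood apart within their group by Dixon's criterion (95% level) were looked for in 42 groups of 4 to 6 horns, and 9 were found, where chance flags about 1 in 20 groups. For KLRK1, the hormone horn of gilt 47 stood apart at 1.09, with the next highest hormone horn at -1.37. For GZMB probe 2, the P horn of control gilt 46 stood apart as the lowest at 1.19, with the next at 1.82. The other 7 were list medians of gilt 47, in log2 units above the control mean. They were the granule effector list in its hormone horn (2.14) and placebo horn (2.15), the NK receptor and adaptor list in its placebo horn (2.74), and the T cell list in its hormone horn (2.76) and placebo horn (2.86). The B cell list in its placebo horn (3.32) and the macrophage and dendritic cell list in its hormone horn (2.47) complete them.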

How the results depend on the processing

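GZMB stayed below control gilts, and lower in hormone than placebo horns, in all 23 settings of each comparison, of which 1 used probe 2 in place of probe 1. All of them reuse the arrays on which GZMB was chosen, so this count is a description and no support. Several settings also cannot move the hormone horn estimate, which was -0.94 with no block, with control horns averaged and under either filter. Leaving out each gilt gave -1.12 to -0.80 for hormone horns and -0.74 to -0.53 for placebo horns against control gilts, and -0.41 to -0.21 between horns. With slide as a covariate the first 2 were -1.63 and -1.33, a fit in which treated and control gilts meet only on slide 6. With each gilt left out KLRK1 ranged from -0.26 (without gilt 47) to 0.36 in hormone horns, from 0.29 (without gilt 47) to 0.89 in placebo horns and from -0.57 to -0.24 between horns, and with slide as a covariate it was 0.92 in hormone and 1.32 in placebo horns. Between control horns the ranges were -0.08 to 0.06 for GZMB and -0.13 to 0.09 for KLRK1. With no replicate block (gilt) GZMB was again -0.94 in hormone horns and KLRK1 0.20. In this layout the block cannot move these 2 estimates, only their SE, so their equality says nothing about the pairing. The SE of GZMB was 0.21 with the block and 0.20 without it, and that of KLRK1 0.44 and 0.45. Beside these, the fixed block gave -0.30 and -0.40 between horns.

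Counts of calls were less stable, and the cause was not tested. In hormone horns the list genes that passed numbered 9 to 25 with a gilt left out (25 without gilt 47), 12 with control horns averaged and 32 with slide as a covariate. In placebo horns they numbered 0 to 16 with a gilt left out, 0 with control horns averaged, 4 after normexp and quantile normalization, 22 with slide, and 2 with gilt 47 and gilt 36's hormone horn left out, a setting chosen after seeing the data. T cell, NK and granule genes that passed numbered 0 to 1 in hormone horns (1 without gilt 40) and 0 in placebo horns with a gilt left out, but 9 and 8 with slide. Over all probes, 4553 passed in hormone horns, against 1454 to 5282 with a gilt left out (1753, 1454, 1614 and 2873 without gilts 9, 14, 28 and 44), 6972 with no replicate block and 2191 with control horns averaged. In placebo horns 1728 passed, against 0 to 3294 with a gilt left out (126, 34, 0, 396, 938, 418 and 3294 without gilts 9, 14, 28, 38, 41, 47 and 36), 3570 with no replicate block, 93 with control horns averaged, 1019 after normexp and quantile normalization, 3161 with slide and 429 with that pair of exclusions. Between horns the 1 call became 0 to 33. The 3 probes were well above background throughout, and whether dim signal limits their values was not tested.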
